A study of Rattus norvegicus with 15 samples.

Results

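The genes for the proteins of the mitochondrial ribosome were followed in rat liver, as the 73 genes of the deposited table whose symbol starts with Mrpl or Mrps and a number. These are 44 Mrpl genes, named for the large subunit, and 29 Mrps genes, named for the small subunit, of 21576 genes in all. Genes were taken by symbol, with no threshold on a measured value. RNA sequencing covered 3 groups of 5 liver libraries from male Sprague-Dawley rats. ZXD rats ate a lipid-raising feed and, after its initial 4 weeks, were given Zexie Decoction, a herbal preparation, at a daily oral dose of 2.2 g per kg for a further 4 weeks. HFD rats ate the same feed and were given saline over those further 4 weeks. CON rats ate normal chow. The feed held 2% cholesterol, 8.3% yolk, 7% lard, 16.7% sucrose and 66% base forage, with 0.3% sodium cholate, a bile salt, and 0.2% propylthiouracil, a drug that blocks the making of thyroid hormone. ZXD and HFD rats thus share the feed and the drug, and the effects of the feed's components cannot be told apart. The labels give 10 rats per group and do not tie libraries to rats, so p-values may measure only technical spread between libraries.

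The mitochondrial ribosome translates the few messenger RNAs made from mitochondrial DNA, whose products are core subunits of the respiratory chain and of ATP synthase. Its RNA comes from mitochondrial DNA, while its proteins are coded in the nucleus, made in the cytosol and imported. The small subunit reads the messenger RNA, and the large subunit joins amino acids and feeds the new protein to the inner membrane. Members with low numbers are mostly counterparts of bacterial ribosomal proteins, and members with high numbers are mostly additions found in mitochondria. Messenger RNAs of mitochondrial DNA were not analysed here.

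Libraries held 12552449 to 14228052 counts. Each of the 73 genes had counts in every library, from 28 to 1377, and all 73 were among the 13163 genes that passed the filter on low counts. All 12 hepatocyte markers had counts in every group, with albumin at 3.64 ± 1.23% of counts in ZXD, 4.33 ± 0.916% in HFD and 8.57 ± 0.628% in CON (SD, n = 5 each). The scale between libraries sets the direction of many values. TMM, which takes most genes as unchanged, gave factors of 1.01 to 1.28 in ZXD, 1.07 to 1.13 in HFD and 0.793 to 0.867 in CON. Library totals as the scale moved the median change over all genes tested, as log2, to 0.44 for HFD against CON, where TMM gave 0.02, and to 0.45 for ZXD against CON, where TMM gave 0.03. Between ZXD and HFD these medians were 0.03 on totals and 0.02 on TMM. In bulk liver, fewer cells of a type and less RNA per cell cannot be told apart.

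Promoters are shown for 6 genes: those of Mrps21, Mrps9, Mrps7 and Mrps26, which have the smallest p-values among genes lower in ZXD than in CON, that of Mrps2, which was higher in HFD than in CON, and that of Mrpl46, whose start lies head to head with that of Mrps11. The windows run from 250 bases before to 50 bases after the gene start, 5′ to 3′, from RefSeq on the build GRCr8. They are Mrps21 at chr2:186103302-186103601 on the minus strand, Mrps9 at chr9:52605428-52605727 on the plus strand, Mrps7 at chr10:101342392-101342691 on the plus strand, Mrps26 at chr3:138222074-138222373 on the plus strand, Mrps2 at chr3:32200827-32201126 on the plus strand and Mrpl46 at chr1:142116981-142117280 on the minus strand. Capitals mark matches to GCATGCG (the core of the NRF1 motif), CCGGAAG (ETS factors, among them GABP), AAGATGG (YY1), GGGCGG (SP1) or CCAAT (NF-Y), on either strand.
Mrps21: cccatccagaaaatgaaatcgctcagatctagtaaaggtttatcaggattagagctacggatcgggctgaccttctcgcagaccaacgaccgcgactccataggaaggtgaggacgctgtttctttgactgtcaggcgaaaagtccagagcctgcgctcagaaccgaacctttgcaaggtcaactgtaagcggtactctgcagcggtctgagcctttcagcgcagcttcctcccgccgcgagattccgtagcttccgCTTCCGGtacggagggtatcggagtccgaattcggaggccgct
Mrps9: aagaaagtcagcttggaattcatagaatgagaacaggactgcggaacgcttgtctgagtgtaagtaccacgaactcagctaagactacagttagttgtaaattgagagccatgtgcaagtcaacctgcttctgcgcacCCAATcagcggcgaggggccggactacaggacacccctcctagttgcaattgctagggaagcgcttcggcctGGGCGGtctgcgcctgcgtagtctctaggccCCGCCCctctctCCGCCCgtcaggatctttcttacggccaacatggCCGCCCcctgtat
Mrps7: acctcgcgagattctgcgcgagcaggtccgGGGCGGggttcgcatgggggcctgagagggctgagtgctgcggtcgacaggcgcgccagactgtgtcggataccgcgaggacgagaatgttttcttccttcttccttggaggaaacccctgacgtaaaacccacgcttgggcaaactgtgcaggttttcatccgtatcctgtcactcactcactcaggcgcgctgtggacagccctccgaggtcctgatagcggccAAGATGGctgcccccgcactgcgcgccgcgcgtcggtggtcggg
Mrps26: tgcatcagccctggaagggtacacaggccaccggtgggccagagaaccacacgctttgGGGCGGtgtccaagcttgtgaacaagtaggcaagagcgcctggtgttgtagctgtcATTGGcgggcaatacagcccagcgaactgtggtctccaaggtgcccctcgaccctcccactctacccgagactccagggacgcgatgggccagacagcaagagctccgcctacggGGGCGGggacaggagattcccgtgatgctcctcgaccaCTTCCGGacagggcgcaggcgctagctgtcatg
Mrps2: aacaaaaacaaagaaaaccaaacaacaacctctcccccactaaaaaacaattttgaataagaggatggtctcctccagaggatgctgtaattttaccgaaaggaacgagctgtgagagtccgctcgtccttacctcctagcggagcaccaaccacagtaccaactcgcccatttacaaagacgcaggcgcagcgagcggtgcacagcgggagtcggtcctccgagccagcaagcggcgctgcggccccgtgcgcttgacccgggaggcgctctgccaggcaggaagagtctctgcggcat
Mrpl46: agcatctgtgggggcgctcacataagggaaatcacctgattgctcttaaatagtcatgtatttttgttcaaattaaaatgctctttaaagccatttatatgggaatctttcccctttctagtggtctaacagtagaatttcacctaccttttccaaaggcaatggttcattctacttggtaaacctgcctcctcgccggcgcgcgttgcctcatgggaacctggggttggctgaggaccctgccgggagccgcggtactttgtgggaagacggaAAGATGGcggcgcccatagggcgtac

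Promoters were matched for 59 of the 73 genes. The ETS letters stood in 19 of these, 32.2%, against 9.22% of all 27457 promoters of the same length. The YY1 letters stood in 15, 25.4% against 7.3% of all promoters, and the NRF1 core in 6, 10.2% against 3.54%. SP1 letters were in 30, 50.8% against 34.9%, and NF-Y letters in 25, 42.4% against 37.7%. Median GC content was 56% in these promoters and 52.3% in all, and the shares are not adjusted for it or for expression in liver. Among the 6 windows shown, those of Mrps21 and Mrps26 each hold 1 ETS match, those of Mrps7 and Mrpl46 each hold 1 YY1 match close to the gene start, and that of Mrps2 holds none of the 5 motifs. A match describes the letters in the window and is not a bound site. Not matched were Mrpl13, Mrpl15, Mrpl16, Mrpl19, Mrpl21, Mrpl35, Mrpl38, Mrpl43, Mrps12, Mrps22, Mrps24, Mrps28, Mrps34 and Mrps35.

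Levels of different genes are compared as FPKM, the deposited counts per gene length and library total. The median over the 73 genes was 16.2 FPKM in ZXD, 18.2 FPKM in HFD and 15.2 FPKM in CON. Large subunit genes had a median of 19.0 FPKM in ZXD, 19.9 FPKM in HFD and 16.1 FPKM in CON, and small subunit genes 16.1 FPKM in ZXD, 17.3 FPKM in HFD and 14.2 FPKM in CON. Mrpl52, a large subunit protein added in mitochondria, ranked first in each group, at 76.6 ± 3.98 FPKM in ZXD, 94.6 ± 8.55 FPKM in HFD and 58.7 ± 6.56 FPKM in CON (SD, n = 5 each). Mrpl43, another such addition, ranked second in each group, at 48.5 ± 3.89 FPKM in ZXD, 50.6 ± 6.38 FPKM in HFD and 47.4 ± 5.26 FPKM in CON. In ZXD and HFD every Mrpl52 value lay above every Mrpl43 value, and in CON the ranges overlapped, at 50.3 to 66.4 FPKM for Mrpl52 and 40.2 to 54.4 FPKM for Mrpl43.

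Mrpl42, whose protein sits in the large subunit, came next after Mrpl43 in CON and had rank 5 in ZXD and in HFD, with a wide spread in CON of 38.7 ± 11.5 FPKM. At the low end stood Mrpl47, a large subunit protein at the tunnel exit, at 2.93 ± 0.594 FPKM in ZXD, 3.78 ± 0.603 FPKM in HFD and 2.58 ± 0.325 FPKM in CON. Mrps6, a counterpart of a bacterial small subunit protein, lay next to it at 4.40 ± 0.819 FPKM in ZXD, 4.61 ± 0.989 FPKM in HFD and 2.59 ± 0.339 FPKM in CON. Mrpl47 and Mrps6 did not differ beyond their spread in CON. The means spanned a ratio of 26.2 from the highest to the lowest gene in ZXD, 24.99 in HFD and 22.7 in CON.

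**Figure D1:**
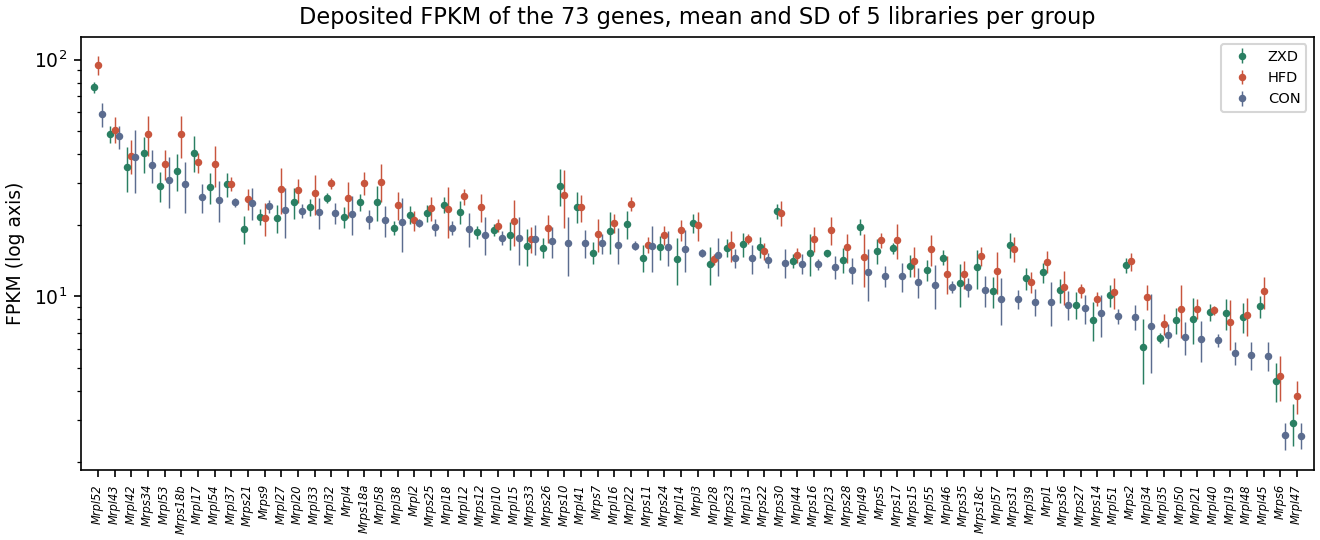
Deposited FPKM of each of the 73 genes on a log axis, as mean and SD of 5 libraries in ZXD, HFD and CON, ordered by the CON mean. Mrpl52 is highest in each group and Mrpl47 lowest, and because FPKM uses library totals most genes sit lower in CON.

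Summed over the 73 genes, the RNA was lowest in ZXD on the TMM scale. ZXD libraries 1 to 5 held 1364, 1425, 1380, 1119 and 1315 CPM, or counts scaled to a common library size, here by TMM. HFD libraries held 1473, 1496, 1548, 1378 and 1402.5 CPM, and CON libraries held 1448, 1577, 1592, 1446 and 1586 CPM. Every ZXD library lay below every CON library, HFD overlapped both, and ZXD 4 was the lowest of all. The group means were 1321 ± 120 CPM in ZXD, 1460 ± 69.3 CPM in HFD and 1530 ± 76.0 CPM in CON (SD, n = 5 each), so ZXD stood at 0.863 of CON and HFD at 0.954 of CON. With library totals as the scale the sums were 1453 ± 50.6 CPM in ZXD, 1606 ± 79.5 CPM in HFD and 1259 ± 91.2 CPM in CON, which puts ZXD at 1.15 of CON and HFD at 1.28 of CON. ZXD stood at 0.905 of HFD on either scale. A sum over chosen genes carries no p-value here.

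**Figure D2:**
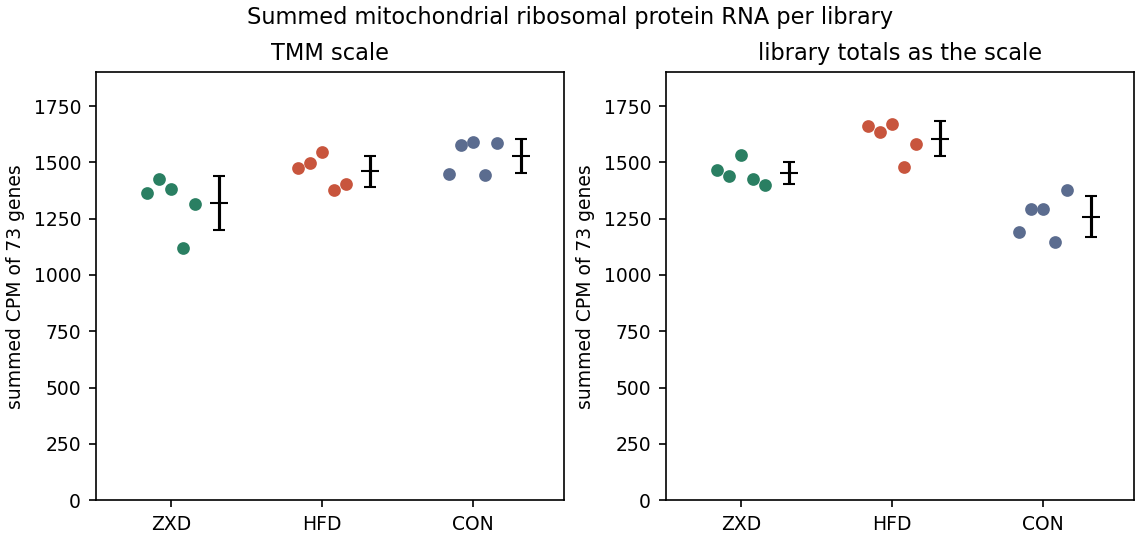
Summed CPM of the 73 genes in each library, on the TMM scale and with library totals as the scale, with mean and SD of 5 libraries beside the points. ZXD lies below CON on the TMM scale, at 1321 against 1530 CPM, and above CON on library totals, at 1453 against 1259 CPM, while its place below HFD is the same in both panels.

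ZXD 4 stood apart from the other libraries. It had the highest TMM factor, 1.28, the lowest albumin share, 1.76% of counts, and the highest macrophage score, 1.95 on a centred log2 scale. Of the 73 genes, 47 were lowest within ZXD in that library on the TMM scale, and 15 on library totals. Markers of several cell types moved with the groups, all on the TMM scale here. For macrophages the summed level ranged over 1334 to 8906 CPM in ZXD, 892 to 4753 CPM in HFD and 498 to 1283 CPM in CON, over 28 markers of which none was at 0 throughout a group. Of these 28, 23 were called higher in ZXD than in CON, where 17.9% of all genes tested were, and 11 higher in HFD than in CON, where 10.0% were. Summed hepatocyte markers ranged over 31922 to 94300 CPM in ZXD, 59649 to 79795 CPM in HFD and 143446 to 166312 CPM in CON, without overlap with CON. Of these 12 markers, Alb, Serpina1 and Ttr were called lower in both comparisons with CON. By share, 14.8% of all genes tested were called lower in ZXD and 10.9% in HFD. The median log2 fold change of the 12 against CON was -0.46 in ZXD and -0.58 in HFD, and on library totals -0.04 and -0.16. Of 17 tested T, B and NK cell markers, 16 were called higher in ZXD than in CON, as were 8 of 11 markers of dividing cells and 5 of 12 endothelial markers. In HFD against CON these counts were 11, 0 and 0. Of 8 cholangiocyte markers, 2 were called higher and 1 lower in ZXD than in CON, and 3 and 1 in HFD. Of 11 tested stellate cell markers, 1 was called higher in ZXD and 1 lower in HFD, each against CON. The part of these cell types in the values of the 73 genes was not tested by any separation of cells. Calls with the macrophage score added to the model are given with each comparison.

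The comparison of HFD with CON addresses what the lipid-raising feed changed. On the TMM scale few of the 73 genes changed: Mrpl45 and Mrps2 rose, and Mrpl2, Mrpl28, Mrpl43, Mrps21 and Mrps9 fell. These calls (edgeR adjusted p under 0.05) are 2 higher of 73, where 10.0% of all genes tested were called higher, and 5 lower, where 10.9% of all genes tested were called lower. Log2 fold changes of the 73 genes ran from -0.58 to 0.49 with a median of -0.12, and 50 of 73 lay below the median of all genes. On library totals 30 genes were called higher, where 40.9% of all genes tested were, and 0 lower, where 3.84% were, and the median was 0.30. At an unadjusted edgeR p under 0.05, 6 of the 73 were higher and 12 lower on TMM, where 2511 and 2356 of 13163 genes were, and 40 were higher and 0 lower on totals, where 6402 and 652 of 13163 were. Relative to the median of all genes the members stood at -0.14 on either scale. No gene was called in opposite directions on the 2 scales.

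In the small subunit, Mrps9, counterpart of a bacterial protein of the head that contacts tRNA, had 30.7, 30.3, 24.2, 23.4 and 29.8 CPM in ZXD, 31.2, 28.5, 26.5, 30.2 and 20.2 CPM in HFD, and 42.0, 43.2, 38.4, 40.2 and 41.0 CPM in CON. All ZXD and HFD values lay below all CON values. Its log2 fold change was -0.58 ± 0.12 (SE) for HFD against CON, with an edgeR adjusted p of 0.00488, and it kept its call without any 1 library. On library totals the change was -0.17 and was not called (edgeR adjusted p 0.238). Mrps2, counterpart of the bacterial protein of that number, had 31.5, 31.9, 29.7, 27.9 and 26.2 CPM in HFD, and 24.1, 18.2, 24.1, 24.5 and 23.8 CPM in CON. Every HFD library lay above every CON library, and CON 2 was well below the other CON libraries. The log2 fold change was 0.36 ± 0.11, with an edgeR adjusted p of 0.0367 on TMM and 0.000175 on totals, where it was 0.78. Its call on TMM was lost without CON 2, CON 3, CON 5, HFD 1, HFD 2 or HFD 3, with edgeR adjusted p-values up to 0.0863. In the deposited coordinates Mrps2 overlaps RGD1306233 on the opposite strand, and strand use in counting is not given in the sources used here.

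In the large subunit, Mrpl45, which lies near the exit of the protein tunnel and ties the ribosome to the inner membrane, had 19.1, 24.5, 23.4, 16.4 and 21.6 CPM in HFD, and 16.7, 16.4, 14.5, 12.1 and 15.3 CPM in CON. HFD 4 fell within the CON range and the other HFD libraries lay above it. Its log2 fold change was 0.49 ± 0.13 with an edgeR adjusted p of 0.0182, and 0.90 on library totals with an edgeR adjusted p of 0.000382. Without HFD 2 the edgeR adjusted p on TMM was 0.0528. Mrpl45 was among the genes with the lowest FPKM in CON, at 5.61 ± 0.788.

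Mrpl2, counterpart of the bacterial protein next to the peptidyl transferase centre, had 18.6, 17.2, 18.3, 22.4 and 17.9 CPM in HFD, and 25.8, 24.1, 24.1, 25.01 and 24.1 CPM in CON. The HFD values all lay below those of CON, which were close together. The log2 fold change was -0.38 ± 0.12 with an edgeR adjusted p of 0.0350. Mrpl28, also of bacterial descent, had 14.5, 13.7, 13.1, 14.8 and 13.8 CPM in HFD, and 16.2, 20.96, 16.2, 20.8 and 23.3 CPM in CON, again without overlap. Its log2 fold change was -0.48 ± 0.15 with an edgeR adjusted p of 0.0401. Both calls were fragile: Mrpl2 was lost without any 1 of the CON libraries or without HFD 1, HFD 2, HFD 3 or HFD 5 (edgeR adjusted p up to 0.0852), and Mrpl28 without CON 2, CON 3, CON 4, CON 5, HFD 1, HFD 2, HFD 3 or HFD 5 (up to 0.0994). On library totals the changes were 0.04 for Mrpl2 and -0.06 for Mrpl28, neither called.

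Mrpl43 and Mrps21 also fell in HFD on the TMM scale. Mrpl43 had 38.1, 33.6, 30.0, 34.01 and 28.0 CPM in HFD, and 39.7, 43.3, 40.6, 36.1 and 44.6 CPM in CON. HFD 1 overlapped CON 4, and the other HFD libraries lay below all of CON. The log2 fold change was -0.32 ± 0.10 with an edgeR adjusted p of 0.0335, lost without CON 2, CON 3, CON 5, HFD 2, HFD 3 or HFD 5 (up to 0.0851), and it was 0.10 on library totals, not called. Mrps21 had a log2 fold change of -0.38 ± 0.13 with an edgeR adjusted p of 0.0488, and the call was lost without any 1 of 13 of the 15 libraries (up to 0.129) and held without CON 1 or ZXD 4. On totals its change was 0.05, not called. With the macrophage score added to the model, 0 of the 73 genes were called higher and 0 lower in HFD than in CON, and the edgeR adjusted p of Mrps9 was 0.0781. Log2 fold changes of the genes called without the score kept their signs, from -0.44 for Mrps9 to 0.47 for Mrps2, with Mrpl2 at -0.20. The score itself differed between groups, with means of 0.89 in ZXD, 0.23 in HFD and -1.12 in CON. That fit can thus separate group and score only in part, and its calls over all genes are not given here.

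The comparison of ZXD with CON sets decoction-treated rats on the feed against rats on chow. On the TMM scale 19 of the 73 genes fell and 0 rose, 10 from the large subunit (Mrpl4, Mrpl10, Mrpl14, Mrpl27, Mrpl28, Mrpl35, Mrpl38, Mrpl43, Mrpl44 and Mrpl53) and 9 from the small (Mrps7, Mrps9, Mrps11, Mrps14, Mrps21, Mrps24, Mrps26, Mrps27 and Mrps33). Of all genes tested, 14.8% were called lower and 17.9% higher. At an unadjusted edgeR p under 0.05, 3 genes were higher and 26 lower, where 3160 and 2592 of 13163 genes were. DESeq2 called 1 higher, Mrps2, and 24 lower, with 2652 of all genes higher and 2270 lower. The limma voom fit called 0 higher and 18 lower, with 1511 of all genes higher and 1810 lower. The median log2 fold change was -0.23 with a range from -0.80 to 0.39, and 62 of 73 lay below the median of all genes. On library totals 21 genes were called higher, where 45.9% of all genes tested were, and 1 lower, Mrps21, where 4.77% were, and the median was 0.19. Relative to the median of all genes the members stood at -0.26 on either scale.

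The count of genes lower in ZXD than in CON, 19 over all libraries, changed when single libraries were left out. Calls over all genes in these fits are not given here, so the changes cannot be tied to these genes. The count was 12, 10 and 11 without CON 2, CON 3 or CON 5, and 11 without ZXD 4 or ZXD 5. It rose to 23 without CON 1 and 24 without ZXD 2. Without ZXD 4, 3 genes were called higher, and without CON 1, 2 were. With the macrophage score in the model 1 gene was called lower, Mrps21, and 0 higher. In that fit the log2 fold changes were -0.64 for Mrps7, -0.48 for Mrps26, -0.35 for Mrps9 and -0.30 for Mrpl35. The score differed between ZXD and CON, so the fit separates group and score only in part. Its calls over all genes are not given here.

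Mrps21, whose bacterial counterpart lies at the mRNA exit of the small subunit, showed the most negative value. It had 10.1, 12.1, 12.9, 11.3 and 10.4 CPM in ZXD, 16.3, 15.8, 16.1, 12.95 and 15.3 CPM in HFD, and 15.1, 22.8, 22.4, 20.4 and 18.6 CPM in CON. On the TMM scale every ZXD library lay below every HFD and every CON library, and CON 1 lay within the HFD range. For ZXD against CON the log2 fold change was -0.80 ± 0.13 with an edgeR adjusted p of 0.000766, and -0.37 with an edgeR adjusted p of 0.0351 on library totals. It was the only one of the 73 genes called lower in ZXD than in CON on both scales, and with the macrophage score in the model its change was -0.85 (edgeR adjusted p 0.0375).

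Further small subunit genes fell in ZXD. Mrps7, counterpart of a bacterial protein that helps to assemble the head, had 15.3, 14.7, 15.2, 12.1 and 12.03 CPM in ZXD, 15.02, 21.3, 16.2, 14.6 and 15.9 CPM in HFD, and 18.7, 23.5, 20.2, 19.4 and 19.9 CPM in CON. ZXD lay below CON throughout, and HFD 2 alone of the HFD libraries reached the CON range. Its log2 fold change for ZXD against CON was -0.55 ± 0.13 with an edgeR adjusted p of 0.00576. Mrps7 overlaps Gga3 on the opposite strand, whose own log2 fold change was 0.40 (edgeR adjusted p 0.188). Mrps26, a mitochondrial addition to the small subunit, had 15.3, 13.3, 15.8, 12.02 and 14.1 CPM in ZXD, and 18.7, 21.4, 17.9, 18.8 and 23.5 CPM in CON. Those groups did not overlap, and the log2 fold change was -0.51 ± 0.12 with an edgeR adjusted p of 0.00631. Mrps9, whose values are given above, had a log2 fold change of -0.57 ± 0.12 for ZXD against CON with an edgeR adjusted p of 0.00424. These calls and that of Mrps21 held without any 1 library. On library totals the changes of Mrps7, Mrps26 and Mrps9 were -0.13, -0.09 and -0.15, none of them called.

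Among large subunit genes, Mrpl35, of bacterial descent, had 9.43, 10.4, 10.3, 8.61 and 10.6 CPM in ZXD, 12.8, 10.96, 12.1, 10.8 and 10.1 CPM in HFD, and 13.8, 13.6, 15.01, 11.5 and 14.0 CPM in CON. ZXD lay below CON throughout and overlapped HFD. The log2 fold change for ZXD against CON was -0.46 ± 0.12 with an edgeR adjusted p of 0.00869, and -0.04 on library totals, not called. Mrpl43 had 34.3, 30.9, 30.7, 29.5 and 30.6 CPM in ZXD, all below the CON values given above, and a log2 fold change of -0.39 ± 0.10 with an edgeR adjusted p of 0.00915. Mrpl28 had 12.5, 18.2, 14.6, 10.8 and 10.8 CPM in ZXD, with ZXD 2 inside the CON range, and a log2 fold change of -0.54 ± 0.15 with an edgeR adjusted p of 0.0160. Mrps2, by contrast, had 29.9, 33.5, 27.4, 24.6 and 26.4 CPM in ZXD, all above CON, with a log2 fold change of 0.31 ± 0.11 and an edgeR adjusted p of 0.05004, just over the threshold. On library totals Mrps2 was called higher, at 0.72 with an edgeR adjusted p of 0.000281.

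**Figure D3:**
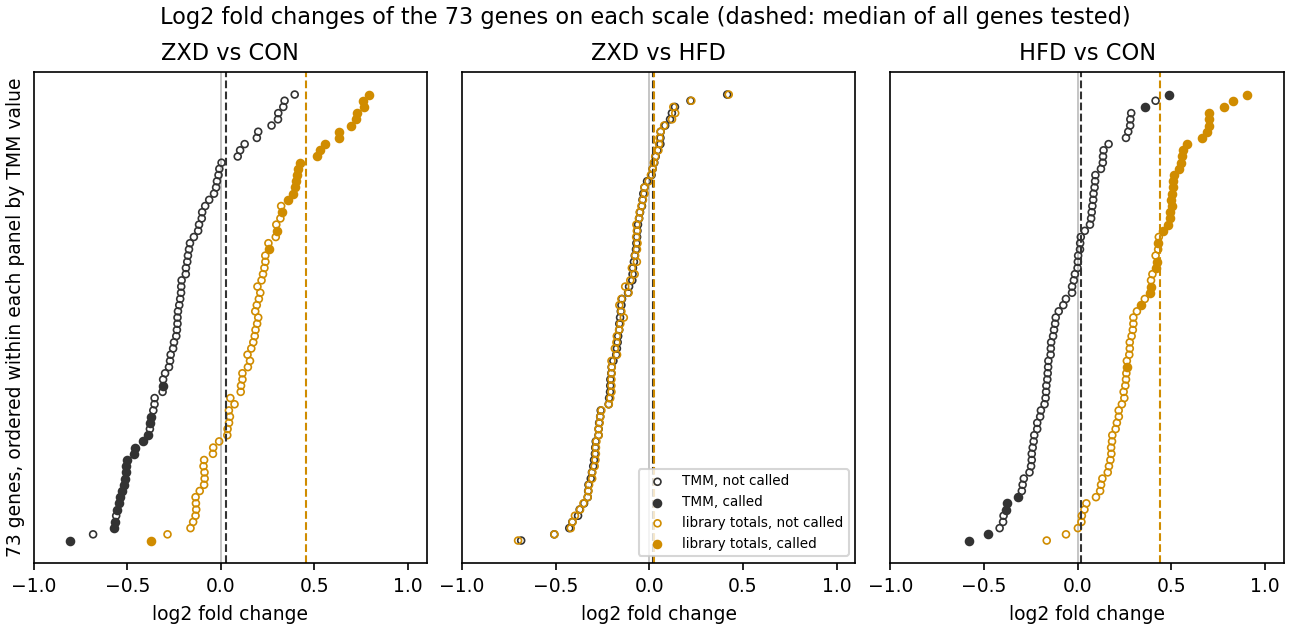
Log2 fold change of each of the 73 genes, ordered within each panel by the TMM value, on the TMM scale and on library totals. Filled points are called at an edgeR adjusted p under 0.05, and dashed lines mark the median of all genes tested. In ZXD vs CON and HFD vs CON the 2 scales are shifted against each other by nearly the same amount for every gene, and in ZXD vs HFD they coincide and no point is filled.

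**Figure D4:**
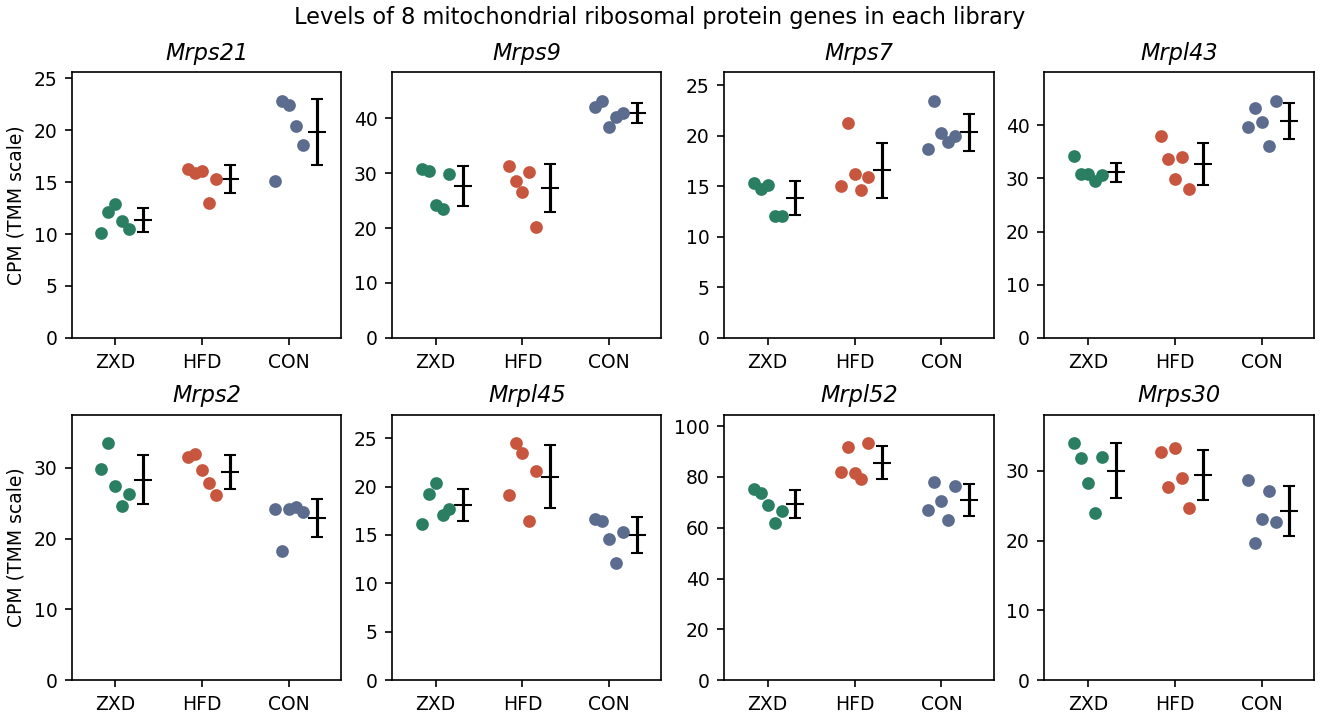
CPM on the TMM scale of 8 of the genes in each library, with mean and SD of 5 libraries beside the points. Mrps21 is lowest in ZXD, Mrps9 is low in both ZXD and HFD, and Mrps2 is low in CON.

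The comparison of ZXD with HFD addresses what the decoction changed in rats on the feed. On TMM 0 of the 73 genes were called higher and 0 lower, as were 0% of all genes tested in either direction, and library totals gave the same 0 and 0, with 0% of all genes. At an unadjusted edgeR p under 0.05, 10 of the 73 were lower and 0 higher on each scale, and of all genes 1295 were higher and 872 lower on TMM. DESeq2 called Mrpl52 lower and no other of the 73 in either direction, with 216 of all genes higher and 132 lower, and limma voom called 0 of the 73 and 0 of all genes. With the macrophage score in the model edgeR called 0 of the 73 higher and 0 lower. The median log2 fold change was -0.16 on TMM and -0.15 on totals. Of the 73 genes, 60 on TMM and 62 on totals lay below the median of all genes.

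Mrpl52 had 75.3, 73.5, 68.8, 61.8 and 66.5 CPM in ZXD, 82.0, 91.8, 81.5, 79.2 and 93.4 CPM in HFD, and 66.9, 77.9, 70.5, 63.2 and 76.3 CPM in CON. HFD lay above both other groups, which overlapped each other. For ZXD against HFD the log2 fold change was -0.31 ± 0.09, with an edgeR adjusted p of 0.176 and a DESeq2 adjusted p of 0.0312. For HFD against CON it was 0.27 ± 0.09, with an edgeR adjusted p of 0.0532 and a DESeq2 adjusted p of 0.0168, and on library totals it was 0.69 with an edgeR adjusted p of 0.000235. The other genes with the smallest p for ZXD against HFD were not called either. Mrps21 had a log2 fold change of -0.43 ± 0.13 (edgeR adjusted p 0.171), and Mrps18b, a mitochondrial relative of the bacterial protein of that number, -0.51 ± 0.18 (edgeR adjusted p 0.211). Mrpl22, which lines the protein tunnel, had -0.29 ± 0.11 (edgeR adjusted p 0.236), and Mrps12, at the decoding site, -0.35 ± 0.14 (edgeR adjusted p 0.240). The most negative value belonged to Mrpl34, chosen after its values were seen, at -0.68 with an edgeR adjusted p of 0.248.

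The subunits gave like medians. For HFD against CON the median log2 fold change on TMM was -0.10 over 44 large subunit genes, with 1 called higher and 3 lower, and -0.13 over 29 small subunit genes, with 1 higher and 2 lower. For ZXD against CON it was -0.21 with 10 lower in the large subunit and -0.25 with 9 lower in the small. For ZXD against HFD it was -0.16 in the large and -0.15 in the small. Genes numbered like bacterial proteins, 39 in all, had a median of -0.23 for ZXD against CON with 11 lower, and the 34 with higher numbers had -0.23 with 8 lower. The split is by symbol. The small subunit set thus includes Mrps30 and Mrps18a, whose proteins sit in the large subunit, and Mrps36, whose product has been reassigned to another complex. The difference between subunits was not tested.

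Several members have roles of their own, and most of these were not called on TMM. Mrpl12 forms the stalk that recruits translation factors and has also been found with the mitochondrial RNA polymerase. It had 35.3, 34.1, 37.1, 25.9 and 29.4 CPM in ZXD, 36.7, 38.0, 43.1, 35.9 and 34.4 CPM in HFD, and 28.98, 43.3, 35.2, 35.4 and 40.4 CPM in CON. The 3 groups overlapped, and the log2 fold change was -0.18 ± 0.13 for ZXD against CON (edgeR adjusted p 0.290). Mrpl10, to which the stalk is attached, fell in ZXD, with 31.7, 33.7, 29.4, 23.3 and 29.3 CPM in ZXD, and 34.2, 39.1, 39.8, 35.6 and 33.6 CPM in CON. ZXD 2 reached the lowest CON value, and the log2 fold change was -0.31 ± 0.10 with an edgeR adjusted p of 0.0347. It did not pass the threshold without CON 2, CON 3, CON 4, ZXD 3, ZXD 4 or ZXD 5, with edgeR adjusted p-values up to 0.0864.

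Mrpl58, a release factor relative that frees peptides from stalled ribosomes, had a log2 fold change of -0.16 ± 0.15 for ZXD against CON (edgeR adjusted p 0.438). Mrps36, whose product has been reassigned to the 2-oxoglutarate dehydrogenase complex, had -0.22 ± 0.15 (edgeR adjusted p 0.292). Mrps30 and Mrps18a carry small subunit symbols, but their proteins sit in the large subunit of mammalian mitochondria. Mrps30 had 33.99, 31.8, 28.3, 23.9 and 32.03 CPM in ZXD, 32.7, 27.6, 33.3, 28.97 and 24.7 CPM in HFD, and 28.7, 19.7, 23.1, 27.1 and 22.7 CPM in CON. Its groups overlapped, and the log2 fold change was 0.31 ± 0.13 for ZXD against CON (edgeR adjusted p 0.0837) and 0.28 ± 0.13 for HFD against CON (edgeR adjusted p 0.133). On library totals Mrps30 was called higher in both, at 0.72 in ZXD (edgeR adjusted p 0.000480) and 0.70 in HFD (edgeR adjusted p 0.000630). Mrps18a had -0.19 ± 0.11 for ZXD against CON (edgeR adjusted p 0.208).

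Mrps22 and Mrps34, small subunit proteins whose loss causes inherited respiratory chain disease in people, were not called on TMM. Mrps22 had log2 fold changes of -0.23 ± 0.12 for ZXD against CON (edgeR adjusted p 0.161) and -0.29 ± 0.12 for HFD against CON (edgeR adjusted p 0.0995). Mrps34 had -0.25 ± 0.16 for ZXD against CON (edgeR adjusted p 0.241) and 0.01 ± 0.16 for HFD against CON (edgeR adjusted p 0.962). On library totals Mrps34 had 46.7, 50.2, 51.1, 36.8 and 32.5 CPM in HFD, and 25.6, 35.4, 32.5, 29.2 and 39.0 CPM in CON. Mrps34 overlaps Eme2 on the opposite strand. Mrpl41, a large subunit protein, had 0.09 ± 0.15 for ZXD against CON (edgeR adjusted p 0.679). On library totals Mrpl12, Mrpl58, Mrps18a and Mrpl41 were among the genes called higher in HFD than in CON, where 40.9% of all genes tested were. Their changes were 0.45, 0.54, 0.50 and 0.50 (edgeR adjusted p 0.00918, 0.0132, 0.00294 and 0.0116), against 0.04, 0.12, 0.08 and 0.08 on TMM. For ZXD against CON only Mrpl41 among them was called on totals, at 0.51 (edgeR adjusted p 0.00808). In all, 9 of the 73 genes overlap another gene in the deposited coordinates: Mrpl13, Mrpl47, Mrpl51, Mrpl57, Mrps18a, Mrps2, Mrps34 and Mrps7 on the opposite strand, and Mrps6, which overlaps Slc5a3 on the same strand.

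Some members varied widely within a group. Mrps10, counterpart of the bacterial protein of that number, had 16.3, 16.6, 13.3, 8.48 and 13.4 CPM in ZXD, 13.7, 10.8, 15.1, 15.3 and 6.98 CPM in HFD, and 13.8, 9.54, 8.46, 7.54 and 12.4 CPM in CON. HFD 5 was lowest of all and each group spanned much of the range of the others. Its log2 fold change against CON was 0.39 ± 0.24 in ZXD (edgeR adjusted p 0.224) and 0.26 ± 0.24 in HFD (edgeR adjusted p 0.460). On library totals Mrps10 was called higher in both, at 0.79 in ZXD (edgeR adjusted p 0.0104) and 0.67 in HFD (edgeR adjusted p 0.029). Mrpl49, a mitochondrial addition, had 8.74, 9.20, 8.95, 8.85 and 9.42 CPM in ZXD, 8.35, 7.05, 4.87, 8.45 and 5.08 CPM in HFD, and 5.47, 8.38, 8.08, 10.996 and 6.39 CPM in CON. ZXD was tight and lay above every HFD library, inside the CON range, and the log2 fold change for ZXD against HFD was 0.42 ± 0.20 (edgeR adjusted p 0.322). For ZXD against CON the change of Mrpl49 was 0.20 ± 0.20 (edgeR adjusted p 0.478). On library totals it was called higher there, at 0.63 (edgeR adjusted p 0.0179). Mrpl50, another mitochondrial addition, was the third of the genes with the largest spread within HFD, from 10.4 to 19.9 CPM, and had a log2 fold change of -0.02 ± 0.18 for HFD against CON (edgeR adjusted p 0.960). Over the 73 genes the median SD of log2 CPM was 0.21 in ZXD, 0.18 in HFD and 0.19 in CON.

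Other genes of mitochondrial translation were taken from lists written by name, and their calls are edgeR calls on the TMM scale, where 10.9% of all genes tested were called lower in HFD than in CON and 14.8% lower in ZXD than in CON. On library totals none of these genes was called lower in either comparison. Of 5 tested mitochondrial ribosomal proteins with other symbols, 1 was called higher in HFD than in CON, Ptcd3, and 1 fell in ZXD against CON, Chchd1, a small subunit protein, at -0.47 ± 0.15 (edgeR adjusted p 0.0244). Ptcd3, which binds the small subunit, had 45.9, 216, 46.3, 47.5 and 329 CPM in HFD, and 51.6, 42.5, 45.1, 48.1 and 45.5 CPM in CON. HFD 2 and HFD 5 were far above CON, and the other HFD libraries lay within the CON range. Its log2 fold change was 1.56 ± 0.52 (edgeR adjusted p 0.0451). Of 17 translation factors, 3 fell in HFD and 0 rose. Tufm, the elongation factor that brings tRNA, was at 46.8 ± 5.99 CPM in HFD and 64.8 ± 5.24 CPM in CON (SD, n = 5 each), a log2 fold change of -0.47 ± 0.11 (edgeR adjusted p 0.0108). Gfm1, the translocating elongation factor, had -0.54 ± 0.14 (edgeR adjusted p 0.0164), and Oxa1l, which inserts new proteins into the inner membrane, had -0.49 ± 0.17 (edgeR adjusted p 0.0472). Against CON, 2 factors fell in ZXD, Tufm at -0.33 ± 0.11 (edgeR adjusted p 0.0355) and Pdf, a deformylase, at -0.35 ± 0.12 (edgeR adjusted p 0.0396). On library totals 3 of the 17 were called higher in HFD than in CON and 5 in ZXD than in CON, where 40.9% and 45.9% of all genes tested were.

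Of 20 tRNA charging genes, Gatc, a subunit of the enzyme that makes glutaminyl-tRNA, fell in HFD at -0.58 ± 0.13 (edgeR adjusted p 0.00640) and in ZXD at -0.66 ± 0.13 (edgeR adjusted p 0.00227), each against CON. Cars2, for cysteine, fell in ZXD at -0.39 ± 0.14 (edgeR adjusted p 0.0434), and no other was called on TMM. On library totals 2 of the 20 were called higher in HFD than in CON and 6 in ZXD than in CON, where 40.9% and 45.9% of all genes tested were. Of 27 assembly genes, 4 fell in HFD: Noa1, Rpusd3 (a pseudouridine synthase), Mterf3 (a large subunit assembly factor) and Mrm1 (an rRNA methyltransferase). Of the same genes, 7 fell in ZXD against CON, led by Mterf3 at -0.46 ± 0.11 (edgeR adjusted p 0.00814), while Fastkd2, an RNA-binding assembly factor, was called higher there. Noa1, a GTPase of small subunit assembly, had -0.74 ± 0.18 in HFD (edgeR adjusted p 0.0113). On library totals 12 of the 27 were called higher in HFD than in CON and 9 in ZXD than in CON, where 40.9% and 45.9% of all genes tested were. No gene of these lists was called between ZXD and HFD by edgeR.

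Genes of mitochondrial DNA transcription and of its control moved both ways on TMM, with 3 of 21 higher and 3 lower in HFD than in CON, and 3 higher and 6 lower in ZXD than in CON. The shares of all genes tested were 10.0% higher and 10.9% lower in HFD, and 17.9% and 14.8% in ZXD. On library totals 9 of the 21 were called higher in each comparison, where 40.9% and 45.9% of all genes tested were. Tfam, which packs mitochondrial DNA and starts its transcription, had 28.6, 34.2, 23.3, 23.5 and 30.6 CPM in ZXD, 30.3, 24.5, 33.8, 34.3 and 25.96 CPM in HFD, and 36.8, 44.6, 39.3, 39.0 and 45.6 CPM in CON. Both groups on the feed lay below CON throughout, with log2 fold changes of -0.55 ± 0.13 in ZXD (edgeR adjusted p 0.00705) and -0.46 ± 0.13 in HFD (edgeR adjusted p 0.0236). Ppargc1a, a coactivator of mitochondrial biogenesis, had 21.6, 15.5, 14.2, 11.1 and 12.03 CPM in ZXD, 7.90, 7.19, 6.87, 14.0 and 4.68 CPM in HFD, and 4.85, 6.51, 6.84, 11.4 and 6.39 CPM in CON. ZXD 4 fell within the CON range and the other ZXD libraries lay above it, with a log2 fold change of 1.05 ± 0.29 (edgeR adjusted p 0.0139). Thra, a thyroid hormone receptor, rose in HFD against CON at 0.86 ± 0.22 (edgeR adjusted p 0.0132), and Thrb, the other, fell at -0.65 ± 0.19 (edgeR adjusted p 0.0289). On library totals Tfam, Tufm, Gatc and Noa1 were not called in either comparison with CON, and Thra and Ppargc1a kept their direction.

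Leaving out 1 library at a time, the TMM calls of Tufm, Gatc, Noa1, Rpusd3 and Thra in HFD against CON held, as did those of Gatc, Noa1, Rpusd3, Mterf3, Tfam and Ppargc1a in ZXD against CON. For HFD against CON, Ptcd3 was lost without HFD 2, HFD 5, ZXD 1, ZXD 5 or any 1 CON library (edgeR adjusted p up to 0.167), and Gfm1 without CON 4 (0.0509). Tfam was lost without HFD 2, HFD 5 or any 1 CON library but CON 1 (up to 0.0675), as was Mterf3 (up to 0.0796), and Thrb without HFD 2, HFD 5, CON 2, CON 3 or CON 4 (up to 0.0814). Oxa1l and Mrm1 were each lost without any 1 of 11 libraries (up to 0.133 and 0.115). For ZXD against CON, Tufm was lost without ZXD 1, ZXD 3, ZXD 4, CON 1, CON 3 or CON 4 (up to 0.0895), and Chchd1 without ZXD 1, ZXD 4, CON 2, CON 3 or CON 5 (up to 0.0633). Pdf was lost without ZXD 3, ZXD 4, ZXD 5 or any 1 CON library but CON 4 (up to 0.106; edgeR adjusted p throughout). Cars2 was lost without ZXD 1, ZXD 3, ZXD 4 or any 1 CON library but CON 1 (up to 0.0984), and Fastkd2 without any 1 of 8 libraries (up to 0.0994).

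Cytosolic ribosomal proteins, which make the ribosome that translates nuclear messages, are set beside for scale. Of 81 tested, 1 fell in HFD against CON on TMM, Rpl10a, where 10.9% of all genes tested were called lower. In ZXD against CON 6 fell, where 14.8% of all genes tested were called lower, and 0 rose in either comparison. On library totals 64 were called higher in HFD than in CON, where 40.9% of all genes tested were, and 21 higher in ZXD than in CON, where 45.9% were, with 0 lower in either. Their median log2 fold change on TMM was -0.11 for ZXD against CON, -0.25 for ZXD against HFD and 0.13 for HFD against CON, where the mitochondrial ribosomal proteins had -0.23, -0.16 and -0.12. The comparisons share libraries, and these differences between lists were not tested.

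**Figure D5:**
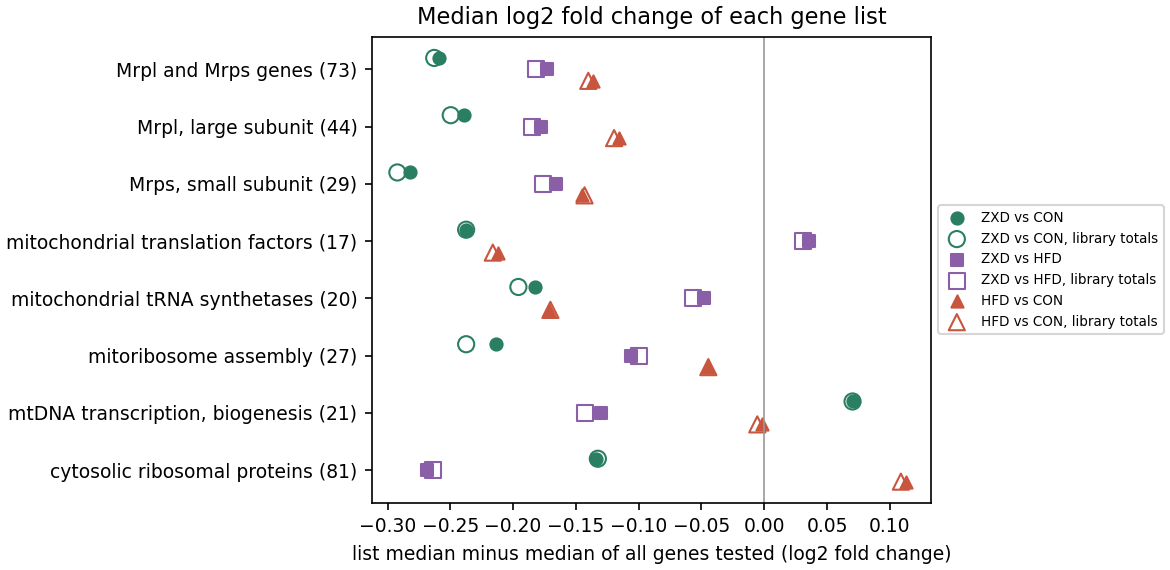
Median log2 fold change of each list minus the median of all genes tested, for ZXD vs CON, ZXD vs HFD and HFD vs CON, on the TMM scale (filled) and on library totals (open). The mitochondrial ribosomal protein genes lie left of zero in each comparison, near -0.26, -0.17 and -0.14 on TMM, and filled and open symbols nearly coincide.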

How the data were processed

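Liver RNA of 15 libraries was grouped by title. The authors deposited 1 table of whole-number read counts and FPKM values per library, per the file headers; FPKM equalled the count over gene length and library total for 100% of values within 0.01%. The submitters' processing notes name edgeR; no aligner, counter, strand use, build or annotation is given in the sources used here. Counts were scaled with TMM factors or with library totals, filtered with filterByExpr (minimum count 10, minimum total 15; 13163 genes tested, 8413 not) and fitted in 1 quasi-likelihood model (edgeR 4.0.16, R 4.3.3). P-values were adjusted by Benjamini-Hochberg over all genes tested in each comparison; calls are at an adjusted p under 0.05. CPM are on the TMM scale unless said. Totals of 12552449 to 14228052 counts make 3 counts equal to 0.183 to 0.285 CPM, for counting error alone. The script was tested on simulated data. The alternatives tried were RLE, upper-quartile and other totals, DESeq2 1.42.0, limma voom 3.58.1, other filters, the 2 groups alone, a replicate block, a macrophage covariate, other thresholds and leaving out each library.

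Named genes are, in each comparison, up to 5 called genes per direction with the smallest p (5 smallest where fewer are called), 10 genes with known roles, the 3 highest and 3 lowest FPKM in CON, and the 3 most variable in HFD, plus up to 3 called genes of each other list. The members and lists were chosen with earlier results of these data known. Promoter sequences came from RefSeq, build GRCr8, 58 matched by symbol and the other by synonym. A simvastatin group was not analysed here.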

Additional observations from a re-analysis of the deposited data

Results flagged for a closer look

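For the 29 named members, the summed CPM of the members and their share of counts, 93 sets of 5 libraries were examined, and in 4 the highest or lowest library stood far from the rest; chance gives about 1 in 20. Mrps2 was at 4.197 log2 CPM in CON 2, where the other CON libraries lay between 4.58 and 4.62. Mrps21 was at 3.71 log2 CPM in HFD 4, against 3.95 to 4.04 in the other HFD libraries. Mrps7 was at 4.42 log2 CPM in HFD 2, above the 3.88 to 4.03 of the others. Mrpl47 was at 2.33 log2 CPM in HFD 2, below the 2.77 to 2.93 of the others.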

How the results depend on the processing

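Scales based on totals gave another direction than TMM in the comparisons with CON, and RLE factors did not. For HFD against CON (2 higher, 5 lower, median -0.12 on TMM), library totals gave 30, 0 and 0.30, totals without plasma proteins 24, 0 and 0.23 (4303 of 13163 genes higher, 625 lower), totals without the 50 largest genes, chosen after seeing the data, 12, 1 and 0.15 (3439 genes higher, 719 lower), and upper-quartile factors 5, 1 and -0.013. For ZXD against CON (0 higher, 19 lower, median -0.23), the same gave 21, 1 and 0.19 on library totals, 13, 1 and 0.083 without plasma proteins (4800 genes higher, 839 lower), and 7, 2 and 0.0069 without the 50 largest (4079 higher, 964 lower). Upper-quartile factors gave 3 higher and 14 lower, all 14 among the 19, and RLE factors 0 higher and 20 lower, with all 19 among them, and RLE factors gave 2 higher and 4 lower for HFD against CON. On library totals the log2 fold change for HFD against CON was 0.097 for Mrpl43, 0.036 for Mrpl2, 0.046 for Mrps21 and 0.39 for Mrps12, each negative on TMM, and that of Mrpl43 was 0.019 without plasma proteins. For ZXD against CON it was 0.034 for Mrpl43, 0.38 for Mrpl52, 0.30 for Mrpl22 and 0.11 for Mrpl10 on totals, again negative on TMM, and 0.27 for Mrpl52 without plasma proteins. These scales shift all genes together; the cause of that shift was not tested.

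Other settings moved counts in the comparisons with CON. For HFD against CON the macrophage covariate gave 0 higher and 0 lower, no filter 1 and 1, the 2 groups alone 3 lower, an adjusted p under 0.01 gave 0 and 1, and a fold of at least 1.5 gave 0 and 0. DESeq2 gave 3 higher and 6 lower there, adding Mrpl52 and Mrpl44, with 1912 of all genes higher and 1799 lower. The limma voom fit gave 2 higher and 4 lower, without Mrps21, with 791 of all genes higher and 1350 lower. For ZXD against CON the covariate gave 1 lower, an adjusted p under 0.01 gave 6 lower, a fold of at least 1.5 gave 1 lower, and DESeq2 and the strict filter each gave 1 higher. There the 2 groups alone gave 13 lower and no filter gave 15 lower, all of them among the 19. For ZXD against HFD, DESeq2 gave 1 lower. Leaving out 1 library gave 0 to 3 higher and 1 to 6 lower for HFD against CON, 0 to 3 higher and 10 to 24 lower for ZXD against CON, and 0 for ZXD against HFD; medians ranged over -0.13 to -0.07, -0.29 to -0.19 and -0.24 to -0.09. For HFD against CON, leaving out HFD 3, HFD 5, CON 2, CON 3 or CON 5 gave 1 lower, and leaving out HFD 1, HFD 2 or CON 4 gave 2, of which 1 was among the 5 without HFD 2; leaving out HFD 2 gave 0 higher, and HFD 1, HFD 3, CON 2, CON 3 or CON 5 gave 1.

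Replicate numbers were not taken as pairs, since the labels give no shared source and not every pair correlated above 0.1. In HFD against CON, numbers 1, 2 and 3 correlated at 0.24, 0.22 and 0.26 and each HFD library's best CON partner had its own number, while 4 and 5 were at -0.00057 and -0.078. In the other comparisons correlations ran from -0.55 to 0.11, with no best partner of the same number. A replicate block gave 1 higher and 1 lower for HFD against CON, 0 and 19 for ZXD against CON, 17 of them shared, and 0 and 0 for ZXD against HFD. Counts near 28 carry a counting error of 18.9%, which limits the lowest genes.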

Other observations

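Head-to-head gene starts were common among the mitochondrial ribosomal protein genes. In the deposited coordinates 19 of 73, 26%, start within 1000 bases of a gene on the other strand that runs away from them, against 7.08% of all 21576 genes. All 73 passed the filter on low counts, while 8413 of the 21576 genes did not, and the shares are not adjusted for that. The window was chosen after the data were seen, and the shares are a description. The pair Mrpl46 and Mrps11 is the only one between members, with starts 234 bases apart. Mrps11 had 13.3, 14.7, 11.3, 8.24 and 11.8 CPM in ZXD, and 13.6, 18.8, 22.8, 14.3 and 18.7 CPM in CON, and fell at a log2 fold change of -0.57 (edgeR adjusted p 0.0183). Mrpl46 had 14.5, 16.4, 16.7, 13.2 and 14.8 CPM in ZXD, and 15.97, 14.6, 15.9, 14.5 and 15.3 CPM in CON, a log2 fold change of -0.01 (edgeR adjusted p 0.955). Whether the pair differs was not tested.

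Partners outside the family include other mitochondrial genes. Mrpl43 starts 128 bases from Peo1, the helicase of mitochondrial DNA, which fell in ZXD against CON at -0.58 (edgeR adjusted p 0.0310), as Mrpl43 did at -0.39. Mrps12 starts 194 bases from Sars2, the seryl-tRNA synthetase, and Mrpl47 starts 266 bases from Ndufb5, a subunit of respiratory complex I; edgeR on the TMM scale called none of these 4 genes in either comparison with CON. DESeq2 called Mrps12 lower in ZXD than in CON (adjusted p 0.0302), and on library totals edgeR called Mrps12 and Mrpl47 higher in HFD than in CON (edgeR adjusted p 0.0356 and 0.0266). Mrpl14 lies 122 bases from Tmem63b, and both fell in ZXD against CON, at -0.54 (edgeR adjusted p 0.0438) and -0.60 (edgeR adjusted p 0.0178). Mrpl50 lies 138 bases from Zfp189, which fell in ZXD against CON at -1.21 (edgeR adjusted p 2.6e-05), where Mrpl50 had -0.18 (edgeR adjusted p 0.487).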
